A study of Mus musculus with 15 samples.

Results

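*Upk3b* and 9 other marker genes of mesothelial cells were measured in RNA-Seq libraries of whole mouse aortas. The 10 genes were chosen by name, and 9 of them (*Upk3b*, *Upk1b*, *Msln*, *Wt1*, *Lrrn4*, *Krt19*, *Gpm6a*, *Bnc1* and *Cldn15*) had a row among the 24982 gene symbols counted, while *Muc16* had none and has no value here. All 9 passed the filter on low counts that left 14121 genes for testing. *Upk3b* came to attention because it ranked 4 by P value of all genes when DHT-treated mice were set against orchiectomized mice without DHT, so that comparison is given for the 9 genes as a description and nothing is read from its calls.

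Each library came from wild-type C57BL/6 mice (C57BL/6J in the methods, males of 10 months), all on Aldo-salt, which is aldosterone at 200 µg/kg per day by minipump plus 0.9% NaCl and 0.2% KCl to drink, given over 7 days that began 2 weeks after surgery. The control group was not orchiectomized (the labels' protocol names a sham operation for such mice), the second group an orchiectomy, which removes the testes and with them the main source of androgen, and the third group an orchiectomy and a pellet of DHT, the androgen dihydrotestosterone. There were 5 libraries per group and 15 in all, each given as its own sample. No group without Aldo-salt was included, so the effect of Aldo-salt itself was not analysed here. The labels do not say that each library came from 1 mouse, and P values measure the spread between these libraries.

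Mesothelial cells form the flat epithelium that lines the pleural, pericardial and peritoneal cavities and covers the organs within them. They combine keratins with features of mesenchymal cells, arise from mesoderm, and give rise to fibroblasts and smooth muscle cells during development. The descending thoracic aorta runs behind the pleura and the aortic root lies within the pericardium, so a dissected aorta can carry some of this lining with its adventitia and fat. In whole tissue, fewer mesothelial cells and less RNA of these genes per cell cannot be told apart.

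Between 8268957 and 13816864 reads were assigned to genes per library. The smooth muscle genes *Acta2* (41631 to 81108 reads) and *Myh11* (24338 to 84517 reads) were abundant in every library. Orchiectomized replicate 2 stood apart. Its 13 lung genes summed to 9564 CPM (reads scaled to the TMM-normalized library total), against 18.3 to 75.8 CPM in the other 14 libraries. *Sftpc*, which encodes surfactant protein C of the lung alveolus, had 22367 reads there and 0 reads in 8 of the other 14 libraries. The lung sum was 35.8 to 75.8 CPM in the other 4 orchiectomized libraries, 19.1 to 27.3 CPM in the control libraries and 18.3 to 28.3 CPM with DHT. The lung surface is covered by mesothelium and its airways express keratins, so results of the orchiectomized group are given with and without this library.

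Of the 10 genes, 6 had an entry among the RefSeq promoters (GRCm38.p6), each running from 250 bases before to 50 bases after a gene start. The promoters of *Upk3b*, at chr5:136038246-136038545 on the plus strand, *Lrrn4*, at chr2:132880813-132881112 on the minus strand, and *Cldn15*, at chr5:136967619-136967918 on the plus strand, are shown 5′ to 3′ because they belong to the gene that drew attention, the member whose pattern was closest to it, and the member that differed least between the groups. Capitals mark GGAATG, the core letters bound by TEAD factors, on either strand (CATTCC on the other), and the GC box GGGCGG.
Upk3b: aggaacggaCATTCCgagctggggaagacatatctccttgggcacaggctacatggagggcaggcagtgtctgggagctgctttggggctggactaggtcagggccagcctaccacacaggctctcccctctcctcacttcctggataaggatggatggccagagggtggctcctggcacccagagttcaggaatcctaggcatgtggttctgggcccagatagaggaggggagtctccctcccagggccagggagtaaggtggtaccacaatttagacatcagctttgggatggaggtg
Lrrn4: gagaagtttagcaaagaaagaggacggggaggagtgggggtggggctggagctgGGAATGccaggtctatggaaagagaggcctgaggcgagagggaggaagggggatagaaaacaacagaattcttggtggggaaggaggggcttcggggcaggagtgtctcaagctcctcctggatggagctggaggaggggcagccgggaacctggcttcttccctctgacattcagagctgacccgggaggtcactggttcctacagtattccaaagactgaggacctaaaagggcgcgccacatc
Cldn15: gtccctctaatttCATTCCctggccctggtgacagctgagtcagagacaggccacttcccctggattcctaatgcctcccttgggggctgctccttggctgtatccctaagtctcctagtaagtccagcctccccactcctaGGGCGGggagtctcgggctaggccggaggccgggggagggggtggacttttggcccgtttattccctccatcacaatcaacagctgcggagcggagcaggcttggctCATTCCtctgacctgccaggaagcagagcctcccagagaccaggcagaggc
The letters GGAATG were found in 4 of the 7 member promoters (*Gpm6a* had 2 promoters), against 14.7% of all 32851 promoters and 12.4% of those of the tested genes. Counted from the start that RefSeq gives each promoter, they began at -241 in *Upk3b*, at -196 in *Lrrn4*, and at -237 and -1 in *Cldn15*. For *Lrrn4* and *Cldn15* that start lies inside the GENCODE M21 gene. GGGCGG was found in 3 of the 7, in 35.7% of all promoters and in 60.7% of those of the tested genes. AGAACA, the half-site shared by the androgen, glucocorticoid and mineralocorticoid receptors, was found in 2 of the 7 (*Gpm6a* and *Muc16*) in 19.0% of all and in 12.5% of those of the tested genes. The full palindromic androgen response element (2 inverted half-sites 3 bases apart) was in 0 of the 7 and in 3 of all promoters. Both strands were searched, the motifs do not overlap except that the half-site is part of the palindrome, and a match is a description of these letters only.

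*Upk3b* encodes uroplakin 3b, a membrane protein related to those of the bladder's umbrella cells and a standard mesothelial marker. In replicate order, *Upk3b* had 465, 171, 153, 375 and 510 reads in the control aortas, 212, 439, 535, 466 and 507 reads in the orchiectomized aortas and 48, 99, 26, 35 and 45 reads in the aortas with DHT. Every library with DHT was below every library of the other groups, and the control and orchiectomized libraries overlapped. The mean was 29.4 ± 14.3 CPM in controls, 36.3 ± 9.23 CPM after orchiectomy and 5.07 ± 2.21 CPM with DHT (SD, n = 5 each), so that the DHT group held 17.2% of the control mean and 13.9% of the orchiectomized mean. DHT-treated orchiectomized mice were lower than control mice by -2.53 on the log2 scale (SE 0.35, edgeR adjusted P = 0.0118). Relative to untreated orchiectomized mice the log2 fold change was -2.83 (SE 0.36), the value that drew attention to the gene. Orchiectomized and control mice differed by 0.30 (95% interval -0.38 to 0.99), which includes 0 and does not show that the groups were alike. Without orchiectomized replicate 2 these 3 log2 fold changes were -2.52, -2.79 and 0.27.

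**Figure D1:**
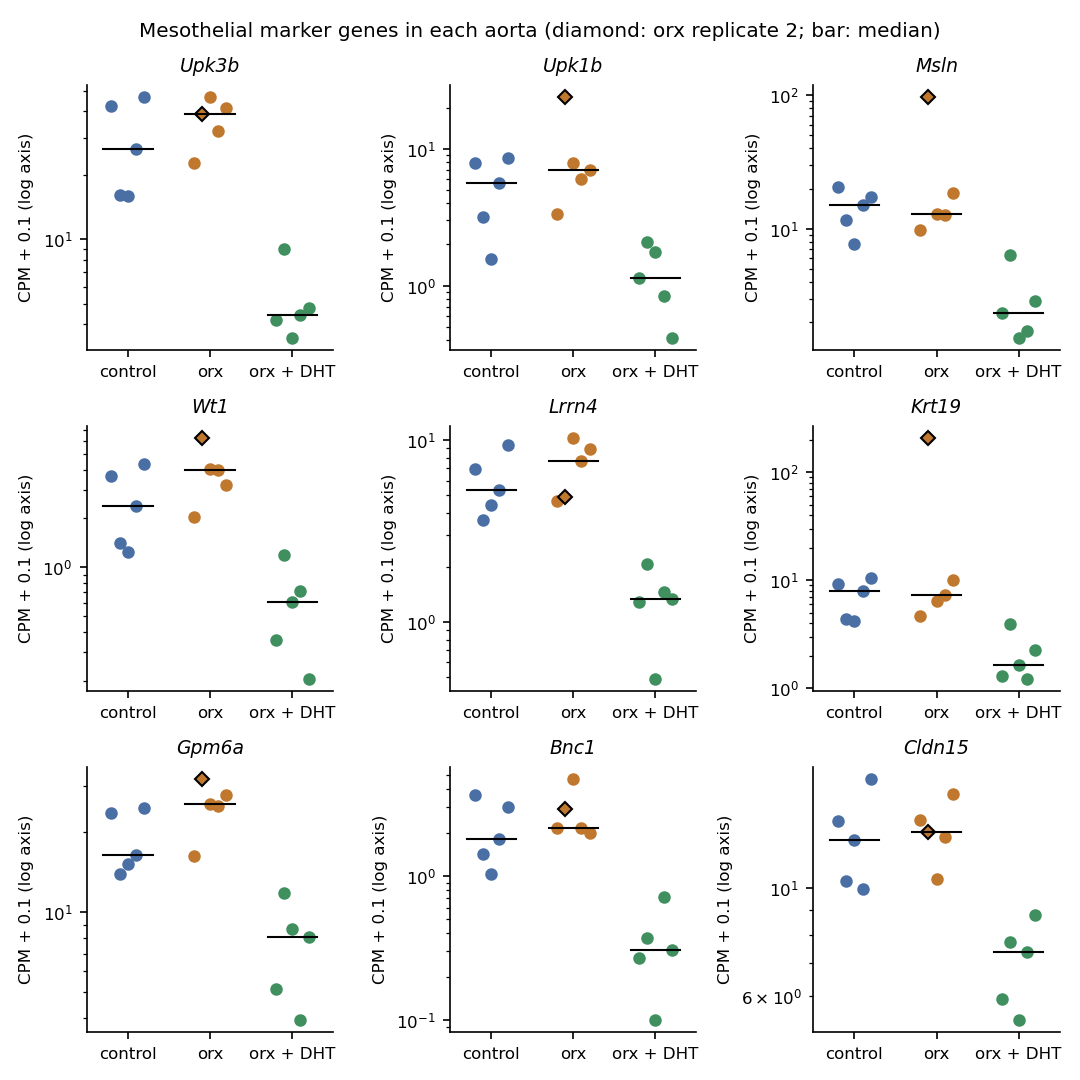
CPM plus 0.1 on a log axis for the 9 mesothelial marker genes in each aorta, with 5 libraries per group, the group median as a bar and orchiectomized replicate 2 as a diamond. The 5 libraries with DHT lie below all others for 8 of the 9 genes, and the diamond is far above the rest for *Krt19*, *Msln* and *Upk1b*.

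*Upk1b* encodes uroplakin 1b, the tetraspanin that partners type 3 uroplakins in urothelial plaques. The counts of *Upk1b*, in replicate order, were 86, 33, 14, 78 and 93 in controls, 30, 273, 89, 87 and 85 after orchiectomy and 12, 22, 13, 6 and 3 with DHT. Values with DHT were low again, although the highest DHT value (1.98 CPM, replicate 2) exceeded the lowest control value (1.46 CPM, replicate 3). The fold change against control mice was -2.19 on the log2 scale (SE 0.61, edgeR adjusted P = 0.187). Orchiectomized replicate 2 had 3.11 times the CPM of the next orchiectomized library. The 4 other uroplakin genes, which are *Upk1a*, *Upk2*, *Upk3a* of the bladder and the *Upk3b* paralog *Upk3bl*, had 0 to 18 reads in any library, and none of them passed the filter on low counts. *Upk3bl* had 0 to 7 reads, and how the counting treated reads shared with *Upk3b* is not given in the sources used here.

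*Msln* encodes mesothelin, a surface protein anchored in the mesothelial membrane that binds the mucin made from *Muc16*. The counts of *Msln*, in replicate order, were 227, 122, 73, 210 and 188 in controls, 90, 1102, 146, 183 and 228 after orchiectomy and 26, 70, 11, 13 and 27 with DHT. All libraries with DHT were below all others. Its mean with DHT was 2.87 ± 2.00 CPM against 14.3 ± 5.02 CPM in the control mice (SD, n = 5), a log2 fold change of -2.29 (SE 0.65, edgeR adjusted P = 0.192). Orchiectomized replicate 2 held 97.5 CPM, 5.25 times the next orchiectomized library, and leaving it out of the fit gave -2.29 (SE 0.39, edgeR adjusted P = 0.0195).

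*Krt19* encodes a type I keratin of simple epithelia, lung airways among them. The counts of *Krt19*, in replicate order, were 100, 46, 39, 110 and 115 in controls, 42, 2361, 73, 105 and 123 after orchiectomy and 14, 43, 12, 9 and 21 with DHT. Here orchiectomized replicate 2 had 20.9 times the CPM of the next orchiectomized library. In CPM the DHT libraries were below all others, narrowly so for DHT replicate 2 (3.87 CPM) beside control replicate 3 (4.07 CPM). In the fit of all libraries the difference between DHT-treated and control mice was -1.83 (SE 1.03, edgeR adjusted P = 0.503). Without orchiectomized replicate 2 it was -1.83 (SE 0.38, edgeR adjusted P = 0.0447). Orchiectomized mice exceeded controls by 2.72 on the log2 scale with that library, and the value was -0.03 without it.

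*Wt1* and *Bnc1* encode transcription factors of the mesothelium, the Wilms tumor zinc finger protein and basonuclin 1. The counts of *Wt1*, in replicate order, were 39, 14, 11, 32 and 46 in controls, 18, 70, 45, 56 and 38 after orchiectomy and 3, 12, 4, 5 and 1 with DHT. The counts of *Bnc1*, in replicate order, were 39, 14, 9, 24 and 32 in controls, 19, 32, 53, 30 and 23 after orchiectomy and 2, 3, 0, 5 and 2 with DHT. Both were counted at few reads, and in CPM both were lower in every DHT library than in every other, for *Wt1* by a small margin (1.08 CPM in DHT replicate 2 and 1.15 CPM in control replicate 3). For *Bnc1*, 0 reads in DHT replicate 3 allow up to 0.385 CPM, counting error only. Against control mice the log2 fold change was -2.25 for *Wt1* (SE 0.53, edgeR adjusted P = 0.0929) and -3.001 for *Bnc1* (SE 0.56, edgeR adjusted P = 0.0432), the lowest of the 9 genes.

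*Lrrn4* encodes a leucine-rich repeat membrane protein that marks mesothelium in adult mouse tissues. In replicate order, *Lrrn4* had 76, 38, 41, 74 and 102 reads in the control aortas, 42, 54, 117, 110 and 108 reads in the orchiectomized aortas and 14, 22, 3, 11 and 12 reads in the aortas with DHT. The DHT libraries did not reach the other groups. The log2 fold change against control mice was -2.22 (SE 0.38, edgeR adjusted P = 0.0318), and orchiectomized replicate 2 was not high for this gene, with 0.467 times the CPM of the highest library.

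*Gpm6a*, which encodes a membrane glycoprotein first known from neurons, and *Cldn15*, which encodes a claudin that forms cation pores in tight junctions, had the log2 fold changes nearest to 0 among the members in both comparisons with DHT. The counts of *Gpm6a*, in replicate order, were 261, 148, 145, 230 and 269 in controls, 151, 359, 292, 363 and 338 after orchiectomy and 59, 130, 67, 31 and 77 with DHT. The counts of *Cldn15*, in replicate order, were 150, 109, 119, 139 and 182 in controls, 127, 146, 118, 183 and 190 after orchiectomy and 68, 85, 41, 59 and 84 with DHT. Neither gene had a DHT library within the range of another group. The means with DHT were 39.7% of the control mean for *Gpm6a* and 55.4% for *Cldn15*, against 12.2% to 27.7% for the other 7 genes. The log2 fold changes against control mice were -1.33 for *Gpm6a* (SE 0.28, edgeR adjusted P = 0.0616) and -0.85 for *Cldn15* (SE 0.18, edgeR adjusted P = 0.0648). The 6 genes of the sympathetic neuron list, which include *Th* and *Snap25*, had 0 members called in any comparison. The median of their log2 fold changes with DHT against control mice was 0.85. The part of this list in the level of *Gpm6a* was not tested.

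Counted together, 8 of the 9 genes were lower with DHT than in controls when called at unadjusted P under 0.01, the threshold of the study, where 2.01% of all tested genes were called lower and 1.52% higher. The exception was *Krt19*. At an adjusted P value under 0.05 the called members were *Upk3b*, *Lrrn4* and *Bnc1*, 3 of 9, against 0.149% of all genes. *Upk3b* had been picked for its level in these same DHT libraries, and *Bnc1* had too few reads to be kept when the control and DHT libraries were fitted alone, so neither call is independent support. The other members were also named with earlier results of these data known and share the same DHT libraries, so none of these counts is independent support. Without orchiectomized replicate 2 all 9 were called at the unadjusted threshold (2.54% of all genes were lower) and 7 at the adjusted one (0.43% of all genes were lower). Ranges did not overlap in 8 of the 9 genes, with DHT lower, which held for 1.79% of all genes. The median log2 fold change of the 9 genes was -2.22, beside -0.0029 over all tested genes.

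The contrast between orchiectomized mice with and without DHT is the one from which *Upk3b* was taken. All 9 genes were lower at an unadjusted P value under 0.01, where 7.27% of all genes were called lower, and all 9 had ranges that did not overlap, as did 4.34% of all genes in that direction. No result rests on these counts, since the contrast was used to choose *Upk3b*. Their log2 fold changes ran from -4.55 (*Krt19*) to -0.90 (*Cldn15*) with a median of -2.86, and from -3.33 (*Bnc1*) to -0.89 (*Cldn15*) with a median of -2.36 without orchiectomized replicate 2. These libraries with DHT are the same as in the comparison with control mice, so the values stand side by side and are not separate evidence.

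Between orchiectomized and control mice 0 of 9 genes were called by edgeR, where 3.22% of all genes were called in either direction. At an unadjusted P value under 0.05 edgeR passed 1 (*Krt19*), beside 12% of all genes, and DESeq2 0, with no P value from DESeq2 for *Krt19*. With all libraries the log2 fold changes of the 9 genes were all above 0, from 0.05 (*Cldn15*) to 2.72 (*Krt19*) with a median of 0.43. Without orchiectomized replicate 2 they lay between -0.11 (*Msln*) and 0.40 (*Lrrn4*), with 7 of 9 above 0 and a median of 0.27. With all libraries the 95% interval was narrowest for *Cldn15*, at -0.32 to 0.43. It reached from -0.37 to 1.59 for *Wt1* and from -0.19 to 2.34 for *Msln*. For *Krt19* it was widest, at 0.70 to 4.75. Differences within these intervals are not excluded.

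**Figure D2:**
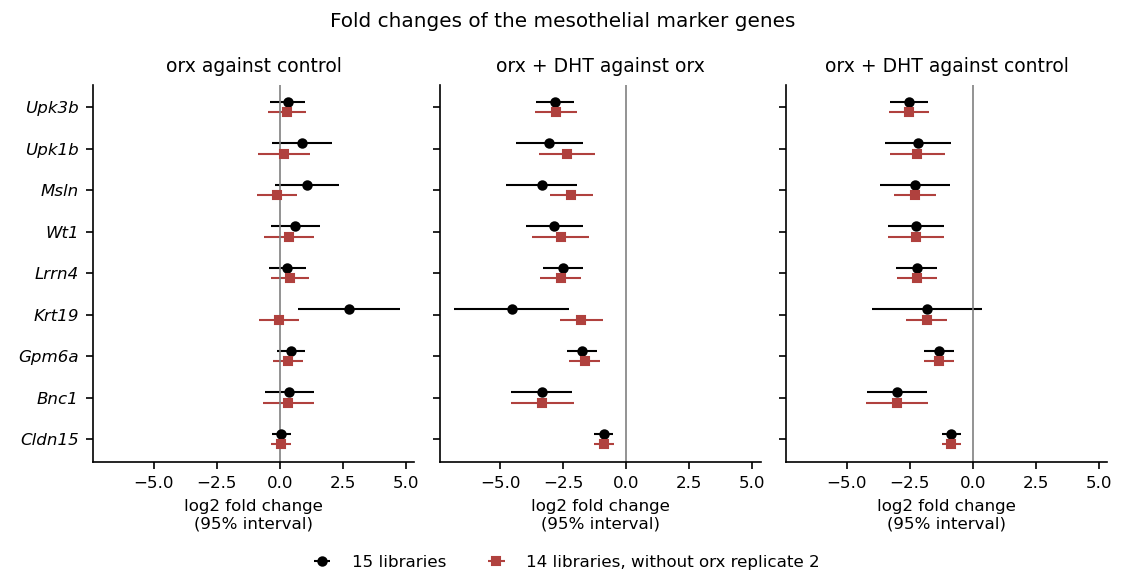
Log2 fold changes with 95% intervals from edgeR for the 9 genes in the 3 comparisons, fitted to all 15 libraries (circles) and to the 14 without orchiectomized replicate 2 (squares). The intervals of the first panel include 0 except for *Krt19* with all libraries, and those of both DHT panels lie below 0 except for *Krt19* against control with all libraries.

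Per length, *Upk3b* was the most abundant member in the control mice, at 8.34 ± 4.06 CPM per kilobase of exon (SD, n = 5). *Cldn15* (5.90 ± 1.30), *Gpm6a* (5.81 ± 1.56), *Msln* (4.68 ± 1.64), *Krt19* (3.85 ± 1.54), *Upk1b* (2.52 ± 1.44) and *Lrrn4* (1.58 ± 0.62) followed in the same unit, and each was within 1 SD of the next. *Bnc1* (0.448 ± 0.237) and *Wt1* (0.402 ± 0.217) were lower, and the gap between *Lrrn4* and *Bnc1* exceeded the SD of either. With DHT the order began with *Cldn15* (3.27 ± 0.66) and *Gpm6a* (2.31 ± 0.97), with *Upk3b* at 1.44 ± 0.63 CPM per kilobase behind them.

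Libraries of a group also differed in how much of the whole set they held. In the control group replicate 3 was lowest for 6 of the 9 genes and replicate 2 for another 2, while replicate 5 was highest for 7. In the orchiectomized group replicate 1 was lowest for 7. With DHT, replicate 2 was highest for 7. The summed level of the 9 genes was 63.0 to 140.3 CPM in the control libraries, 78.7 to 133.5 CPM in 4 orchiectomized libraries and 428.0 CPM in replicate 2, and 21.0 to 43.8 CPM with DHT. After each group's mean was taken off, the 36 pairs of members had a median Pearson correlation of 0.54 over the 15 libraries and 0.59 over the 14 without orchiectomized replicate 2 (log2 CPM, lowest -0.05 in the latter). These pairs share libraries and depth, and the correlations are a description.

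Outside the members, the tested genes whose log2 CPM followed *Upk3b* most closely over the 15 libraries were *Dpp4* (Pearson r = 0.95), *Chst4* (0.94), *Pkhd1l1* (0.94), *Cybrd1* (0.94) and *Prr16* (0.93), of 14112 ranked. *Dpp4*, also on the adventitial fibroblast list used here, encodes a surface peptidase, *Chst4* a sulfotransferase and *Cybrd1* a ferric reductase. *Dpp4* averaged 13.4 ± 4.57 CPM in controls, 18.0 ± 7.36 CPM after orchiectomy and 3.39 ± 1.48 CPM with DHT (SD, n = 5). Over the 14 libraries without orchiectomized replicate 2 the closest were *Krt8* (0.98), *Lrp2*, which encodes the endocytic receptor megalin (0.97), *Dpp4* (0.96), *Slc39a8*, a zinc transporter gene (0.95), and *Pkhd1l1* (0.94). Among the members, r with *Upk3b* over the 15 libraries was highest for *Lrrn4* (0.97) and lowest for *Krt19* (0.73), which was 0.96 over 14 libraries. These genes were picked for their pattern, so their differences between groups are no test.

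**Figure D3:**
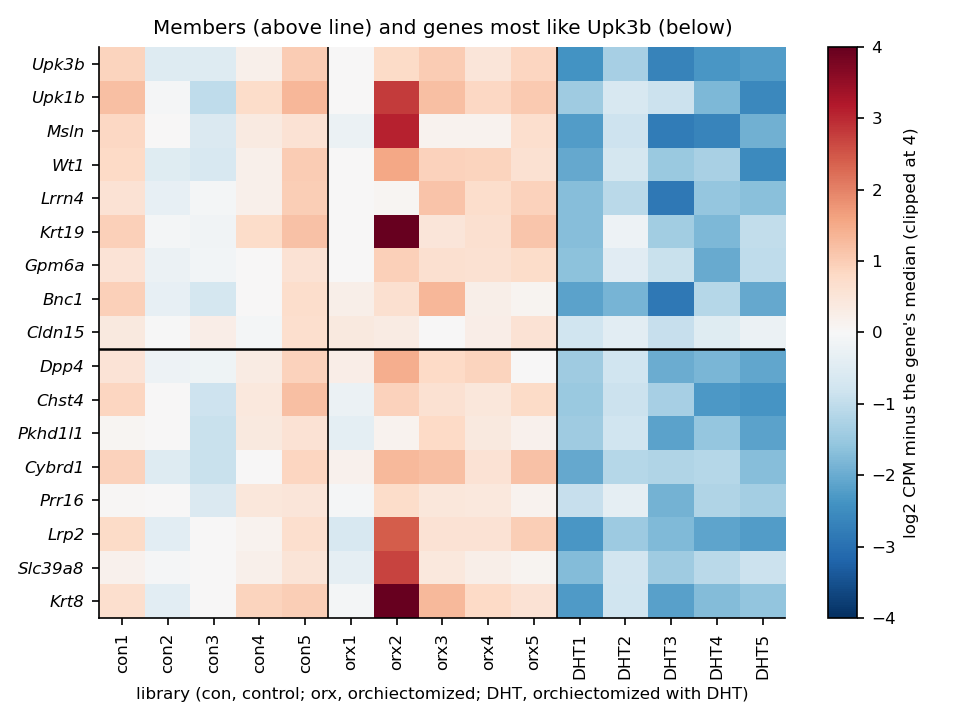
Log2 CPM minus the median of each gene, by library, for the 9 members (above the line) and the 8 other genes closest to *Upk3b* over 15 or 14 libraries (below), red above and blue below the gene's median and clipped at 4. The 5 DHT columns are blue throughout, and the column of orchiectomized replicate 2 is reddest for *Krt19*, *Krt8*, *Msln*, *Upk1b*, *Slc39a8* and *Lrp2*.

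A list of 13 other mesothelial genes was read beside the members, and 11 of them were tested. The other 2 were too low to test, and *Calb2*, which encodes the mesothelial and neuronal marker calretinin, went the other way from most of the list. It had 0, 0, 0, 0 and 3 reads in the control libraries, 0, 2, 2, 1 and 23 after orchiectomy and 1, 9, 7, 3 and 44 with DHT. DHT replicate 5, which held the 44 reads, also had the highest sum of the sympathetic neuron list (1130 CPM), whose part in the *Calb2* reads was not tested. *Itln1* had 24 reads in orchiectomized replicate 2 and 0 in the other 14 libraries. Of the 11 tested genes, against control mice 4 were lower with DHT and 0 higher at an unadjusted P value under 0.01, with a median log2 fold change of -0.79 and 11 of 11 below 0. The called genes were *Aldh1a2*, the retinoic acid synthesis enzyme of embryonic and adult mesothelium (-1.29), *Nkain4* (-1.07), *Prg4*, which encodes the lubricant lubricin (-1.21), and *Efemp1*, a fibulin gene also used by fibroblasts (-0.73). None of the 11 had an adjusted P value under 0.05 from edgeR with all libraries. Without orchiectomized replicate 2, 7 were called lower (2.54% of all genes), now with the keratin genes *Krt7* (-2.16) and *Krt8* (-2.48) and with *Pdpn* (-0.78). Of these *Krt7* and *Krt8* passed the adjusted threshold (0.43% of all genes were lower). *Krt8* had 3 to 16 reads per library with DHT, 21 to 74 in the control mice and 3136 in orchiectomized replicate 2. *Krt18*, the usual partner of *Krt8*, did not pass against control mice (-0.10).
Of 6 transcription factors of serosal and epicardial cells, 0 were called against control mice, with values from -0.80 (*Gata4*) to 0.87 (*Hand2*). Against untreated orchiectomized mice *Tcf21*, *Gata4* and *Tbx20* were called lower with all libraries (-2.83, -2.28 and -1.09), as were 7.27% of all genes. Without orchiectomized replicate 2 their values were -1.47, -1.55 and -0.83, and 0 of 6 were called (5.26% of all genes were lower).

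Markers of other cell types moved with the members in part. The 6 adventitial fibroblast genes summed to 628 to 956 CPM with DHT. Their sum was 1001 to 1481 CPM in controls and 917 to 1739 CPM after orchiectomy. Against control mice all 6 log2 fold changes were below 0, and 3 were called lower (*Pi16*, *Dpp4* and *Col14a1*, -0.51, -1.96 and -1.27). Calls in this comparison used an unadjusted P value under 0.01, which 2.01% of all tested genes passed as lower and 1.52% as higher. The smooth muscle list summed to 18673 to 23381 CPM with DHT and 13419 to 19307 CPM in the control mice, with 5 of 5 genes above 0 (median 0.39). Of these 0 were called with all libraries, and *Smtn* (higher) was called without orchiectomized replicate 2, as were 2.26% of all genes. The endothelial list summed to 537 to 732 CPM with DHT and 665 to 1003 CPM in the control mice. Of its genes 5 of 5 were below 0 and 2 were called lower. The adipocyte list summed to 696 to 1637 CPM with DHT and 722 to 1943 CPM in the control mice, with 0 of 5 called. The list of macrophages of the serous cavities summed to 18.6 to 30.4 CPM with DHT and 22.0 to 48.7 CPM in the control mice. Its 5 genes were all below 0 against control, with a median log2 fold change of -0.92, and 0 of 5 were called. Of the 4 lung genes tested, 0 were called between DHT-treated and control mice. Without orchiectomized replicate 2, *Napsa* (1.42) and *Scgb1a1* (2.11) were called higher in orchiectomized than in control mice (0.846% of all genes). In that fit 3 of the 4 were called lower with DHT than in untreated orchiectomized mice (5.26% of all genes). *Sftpc* had 13, 28 and 57 reads in orchiectomized replicates 1, 3 and 4 and 0 in every control, so leaving out replicate 2 did not remove all lung transcripts. The general epithelial list (*Epcam*, *Cdh1*, *Krt5* and *Krt14*) summed to 0.0855 to 2.17 CPM with DHT and 1.73 to 3.17 CPM in the control mice, with 1 of 2 tested genes lower. The lymph node list was at 2.99 to 5.18 CPM with DHT, 3.35 to 4.69 CPM in the control mice and 4.20 to 35.5 CPM after orchiectomy (the highest in replicate 2, and up to 19.0 CPM without it), with 0 of 3 called against control. The part of these lists in the level of the mesothelial genes was not tested.

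**Figure D4:**
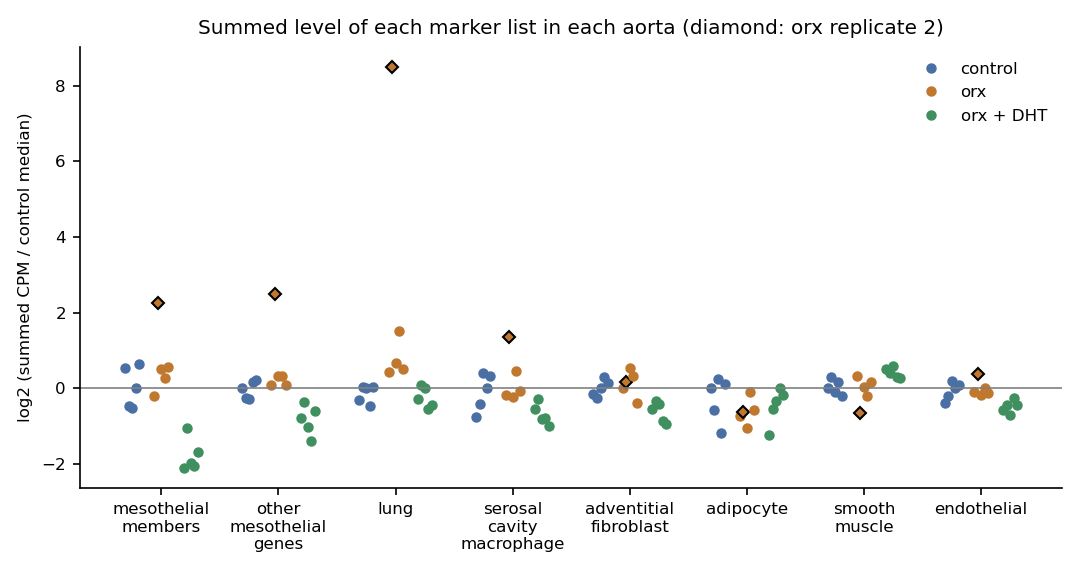
Summed CPM of each marker list in each library, as log2 of the ratio to the median control library, by group, with orchiectomized replicate 2 as a diamond. Not all lists are plotted, and the epithelial one is left out. Of those plotted, the mesothelial members are lowest with DHT by this ratio, at 21.0 to 43.8 CPM, though not lowest in CPM. The lung list stands out in 1 library at 9564 CPM.

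*Upk3b* lies at chromosome 5, 136038496 to 136046487 on the plus strand (GENCODE M21, GRCm38), with *Cldn15* on the same chromosome from 136966616. The genes around it were read after the values above were known. Of 18 neighbours with a row whose starts, on their own strands, lie within 300 kb, 13 were tested, and 0 were called against control mice (3.53% of all genes in either direction), with log2 fold changes from -0.39 to 0.40. Against untreated orchiectomized mice 1 of the 13 was called, *Hspb1*, a small heat shock protein gene that was higher by 0.80 (9.72% of all genes were called in either direction), and the 13 ran from -0.40 to 0.80. No exon of *Upk3b* overlapped another annotated gene, and of the 9 members *Bnc1* alone shared exon bases (98, or 2.11% of its exon bases, with an antisense gene that has no row here).

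**Figure D5:**
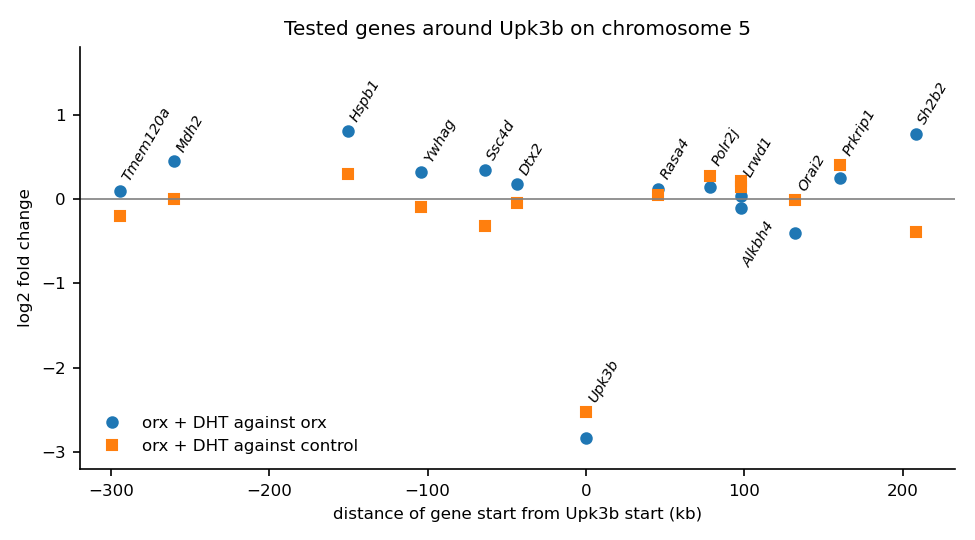
Log2 fold changes of the tested genes within 300 kb of the start of *Upk3b*, by distance of their starts in kilobases, for DHT-treated against untreated orchiectomized mice (circles) and against control mice (squares). *Upk3b* lies at -2.83 and -2.53, and its 13 neighbours between -0.40 and 0.80.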

How the data were processed

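Poly(A)-selected RNA of 15 cleaned whole aortas was sequenced, and the authors deposited whole-number read counts for each gene symbol, without normalization. The submitters' processing notes name STAR, Cufflinks, DESeq2 and the mm10 build without versions or roles, and the counting program and annotation are not given in the sources used here. The entries for reads in no feature (6.26% to 14.4%) and ambiguous reads (1.34% to 1.97%) were left out. Groups and replicate numbers came from the labels. The analysis used edgeR 4.0.16 in R 4.3.3: filterByExpr (minimum count 10, total 15), TMM, and 1 quasi-likelihood fit of the 3 groups to all 15 libraries, checked on simulated data. Calls used an unadjusted P value under 0.01. P values were Benjamini-Hochberg adjusted over 14121 genes. CPM used TMM library sizes, and log2 CPM a prior count of 3. Exon lengths came from GENCODE M21 on GRCm38, which is mm10, as did gene positions, neighbours and exon overlaps. A gene with 10 counts is at 0.906 CPM in a library of median TMM-scaled size. Libraries of a group differed by at least 11.9 times the chi-square per degree of freedom that sampling noise gives.

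The members and lists were chosen with earlier results of these data known. Named were the members, genes of the lists, and the 5 genes closest to *Upk3b* by Pearson correlation, and neighbours by distance. The lists covered other mesothelial genes, other uroplakins, serosal and epicardial transcription factors, lung, serosal cavity macrophages, sympathetic neurons, adipocytes, adventitial fibroblasts, smooth muscle, endothelium, lymph node and general epithelium. Alternatives were RLE scaling, DESeq2 1.42.0, a fit of every gene with a count, only the groups compared, a replicate block, the adjusted threshold and leaving out each library. Figures were drawn with Python 3.11.15 and matplotlib 3.10.9.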

Additional observations from a re-analysis of the deposited data

Results flagged for a closer look

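Within each group of 5 libraries, the gap between an extreme library and its nearest neighbour was compared with the range of the group for the CPM of the 9 genes. Of 27 groups 5 were marked, and chance marks about 1 in 20. Orchiectomized replicate 2, the library with lung transcripts, was the high one for *Upk1b* (24.2 CPM), *Msln* (97.5 CPM) and *Krt19* (209 CPM). DHT replicate 2 was the high one for *Upk3b* (8.92 CPM) and *Msln* (6.31 CPM), and both values were below those of every control and orchiectomized library.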

How the results depend on the processing

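The fall of the members with DHT kept its direction for each of the 9 genes under every alternative that gave a value, against control and against untreated orchiectomized mice. Against control mice 8 were called, 3 at an adjusted P value under 0.05, and 8 to 9 when 1 library was left out. *Krt19* was called with only the groups compared and without orchiectomized replicate 2, and *Bnc1* was not among the genes kept with only the groups compared. Against untreated orchiectomized mice 9 were called in every fit that left out 1 library, and DESeq2 gave 8, with no P value for *Krt19*. That contrast was used to choose *Upk3b*, so nothing is read from these counts (7.27% of all genes were called lower in the main fit). For orchiectomized against control mice, leaving out 1 library gave 0 to 1 called member, *Krt19*, which passed without orchiectomized replicate 1, 3, 4 or 5. The direction turned for *Msln* (-0.11, range to 1.25) and *Krt19* (-0.033, range to 2.98) without orchiectomized replicate 2, and for *Cldn15* (range to 0.17) without control replicate 2 (-0.013) or 4 (-0.024) or orchiectomized replicate 5 (-0.019). The cause was not tested.

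Over all genes, orchiectomized against control gave 454 calls, against 752 with all genes with at least 1 count, 285 with the replicate block, 297 with only the groups compared, 0 at the adjusted threshold and 252 to 716 leaving out 1 library (716 without control replicate 4, 254 without orchiectomized replicate 2). DESeq2 split its 620 calls into 304 higher and 316 lower, against 294 and 160. DHT against untreated orchiectomized mice gave 1373 calls, 666 at the adjusted threshold and 1008 to 1585 leaving out 1 library. DHT against control gave 498, 37 at the adjusted threshold and 283 to 681 leaving out 1 library, the lowest without control replicate 5. The replicate numbers are shared by the groups, and 5 of 15 same-numbered pairs had a correlation above 0.1 (range -0.47 to 0.46). Differently numbered pairs were not compared, so whether the numbers pair the libraries cannot be told. With the replicate block 0, 9 and 8 members were called in the 3 comparisons. Of the 5 genes closest to *Upk3b*, 4 were found again with a prior count of 0.5 and 2 without orchiectomized replicate 2. *Wt1* and *Bnc1*, with 0 to 12 reads per DHT library, are the members that depth limits most.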
